A study of Mus musculus with 2 samples.

Results

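The response of the heart to caloric restriction was compared between mice lacking Sirt1 in their cardiomyocytes and control mice, as the log2 ratio of the restricted over the freely fed heart on the knockout array minus the same ratio on the control array. A gene entered where its probe was above the blank spots in all 4 hearts and flagged OK on both arrays. This held for 11698 of the 16390 genes named by a probe. The hearts came from male C57BL/6J mice that were 6 months old and had been fed ad libitum (AL) or calorically restricted by 40% (CR) for 3 months. The 4 groups were control mice under AL, control mice under CR, cardiomyocyte-specific Sirt1 knockout mice under AL and the same knockout under CR, with 1 heart in each group. On each array the AL heart was labelled with Cy5 and the CR heart with Cy3, with no dye swap. No Cre driver, Sirt1 allele, genotype of the control mice or time of day of tissue collection is given in the sources used here.

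Caloric restriction lowers plasma insulin and raises glucocorticoids, and fasting shifts the fuel of heart muscle toward fatty acids and ketone bodies. Sirt1 is an NAD-dependent deacetylase of histones and transcription factors, among them FOXO proteins, PGC-1alpha and parts of the circadian clock, and has been studied as a mediator of effects of restriction. A difference of responses above 0 means that the CR over AL ratio was larger in the knockout pair, and one below 0 that it was larger in the control pair. The same difference can therefore come from any of the 4 hearts. Most of the larger ones are described here by the heart or pair in which they lie, and others by the difference alone.

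With 1 heart in each group there is no replicate, so no value has an error from mice and none was tested. Every difference describes these 4 hearts. Each genotype was on its own array, so genotype and array cannot be told apart. A log2 signal is given for each heart in the order control AL, control CR, knockout AL and knockout CR, after the channels of the 2 arrays were put on a common scale. Signals of different genes come from different probes and are not compared with each other. Of all probes, 80.7% and 77.8% were above the blank spots in the control AL and CR hearts and 77.6% and 74.0% in the knockout AL and CR hearts. Spots of a pair of positive controls, 24 of each on an array, differed between the arrays too. Their mean differences of responses were -0.68 and 0.18. The SDs among spots of the 2 arrays, combined as the root of the sum of squares, were 0.0857 and 0.106. In bulk tissue, fewer cells of a type and less RNA per cell cannot be told apart.

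Sirt1 itself had log2 signals of 7.11, 7.53, 7.07 and 7.51. It was higher in both CR hearts than in both AL hearts, and the difference of responses was 0.02. The position of its probe with respect to the deleted exons is unknown, and whole hearts hold cells that keep Sirt1, so this signal does not check the genotype. Cardiomyocyte genes were bright on both arrays, for example the ventricular light chain Myl2 with log2 signals of 16.03, 15.41, 16.07 and 15.38. The atrial light chains Myl7 and Myl4 differed between control and knockout hearts under both diets, and thus also between the arrays. Myl7 had log2 signals of 10.26, 10.32, 6.31 and 6.26, and Myl4 had 9.49, 9.53, 7.01 and 6.81. Their differences of responses were -0.11 and -0.24, so the much lower atrial signal of both knockout hearts was nearly absent from the difference of responses.

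Most differences of responses were small. Over the 11698 genes the median was -0.003 and the SD across genes 0.173, and 49.0% of the genes were above 0. Only 4 genes were at least 2-fold above 0 (0.0342% of the genes compared), namely Cytl1, Lrrc10, Depp1 and Tsc22d3. At least 2-fold below 0 were 10 genes (0.0855%), namely Rrad, Dbp, Xlr3b, Col3a1, Egr1, Acta1, Mthfd2, Ciapin1, Atf5 and Myh6. At 1.5-fold there were 44 genes above 0 (0.376%) and 60 below (0.513%). The calls were not spread evenly over brightness: of the 104 genes at 1.5-fold, the dimmest 2925 genes held 0 and the brightest 2925 held 68. The offset of 50 added in background correction draws the ratios of dim genes toward 0, so calls among them are fewer by construction. With an offset of 0, 820 genes were at 1.5-fold. The genes just inside and outside the upper limit of 2-fold were Tsc22d3 at 1.047 and Acer2 at 0.997, and at the lower limit Myh6 at -1.023 and Adhfe1 at -0.991. At 1.5-fold they were Sesn1 at 0.587 and Timp4 at 0.585 above 0, and Ccr4 at -0.586 and Nudt7 at -0.584 below.

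**Figure D1:**
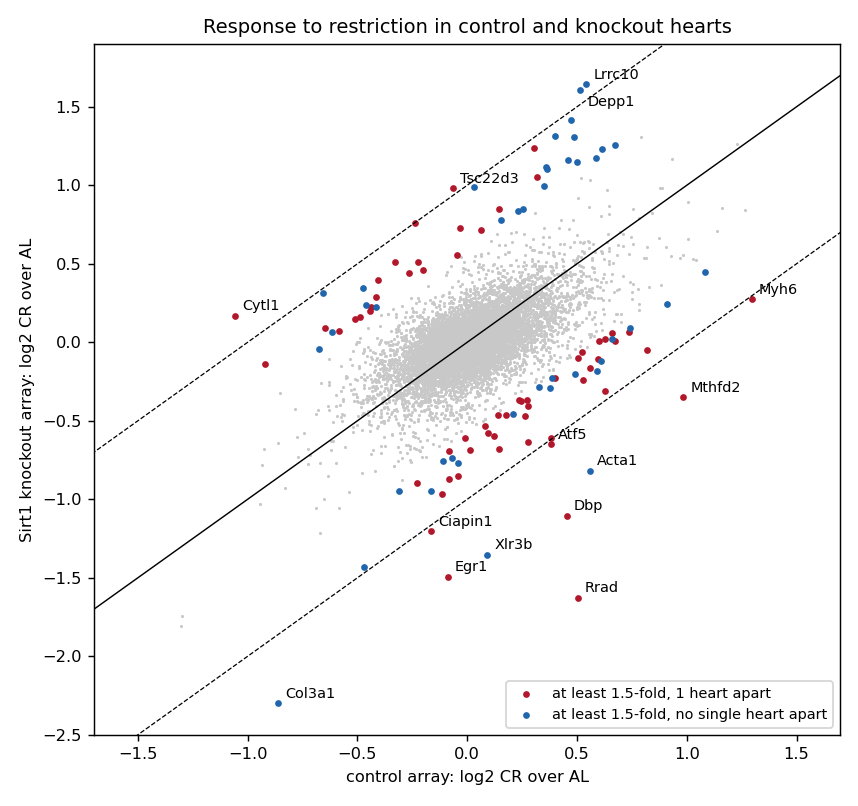
Log2 CR over AL on the control array (x axis) against the knockout array (y axis) for the 11698 genes, each a point, with the solid line marking equal responses and the dashed lines a 2-fold difference. The 104 genes at least 1.5-fold apart are red where a single heart stands apart (62 genes) and blue otherwise (42 genes), and the 14 genes at least 2-fold apart are named.

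A single heart stood apart for 62 of the 104 genes, meaning that the range of the other 3 log2 signals was at most 0.5 of the size of the difference. The share over all genes compared is not given here, so this count and its split by heart describe the 104 genes only. The side of a heart apart follows from the sign of the difference under this rule, so the counts above and below restate that sign. The heart apart was that of knockout AL for 21 genes, and it was above the other 3 hearts for 16 of them and below for 5. The control CR heart was apart for 16 genes, 10 above and 6 below. The knockout CR heart was also apart for 16, with 7 above and 9 below, and the control AL heart for 9, with 4 above and 5 below. For the other 42 genes no single heart stood apart. The difference lay in the knockout pair for 25, in the control pair for 10 and in both for 7. It was placed in a pair whose response accounted for at least 2/3 of it, and otherwise in both. Of the 40 genes below 0 with a single heart apart, the knockout AL heart was apart for 16. By the rule it is then above the other 3 hearts, which lie near each other. Of the 104 genes, 57 had responses of opposite sign on the 2 arrays, 22 of them with a difference above 0 and 35 below. Over all 11698 genes, 50.6% of control responses and 49.3% of knockout responses were above 0. Opposite signs are more likely where a difference is large, and their share over all genes is not given here.

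Which heart stands apart depends on how the arrays are put on a common scale, while a constant shift of a whole array leaves the difference of responses as it is. With the channels scaled by their medians, 50 of the 62 genes kept the same heart. With quantile normalization of all 4 channels 61 did. Subtracting the local background changes the differences themselves as well, and 22 of the 62 then kept the same heart.

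Over all 11698 genes, no heart held most of the highest or lowest signals. The highest of the 4 signals was in the control AL heart for 3069 genes, the control CR heart for 2532, the knockout AL heart for 2861 and the knockout CR heart for 3236. The lowest was in the control AL heart for 3405, the control CR heart for 2686, the knockout AL heart for 2443 and the knockout CR heart for 3164.

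**Figure D2:**
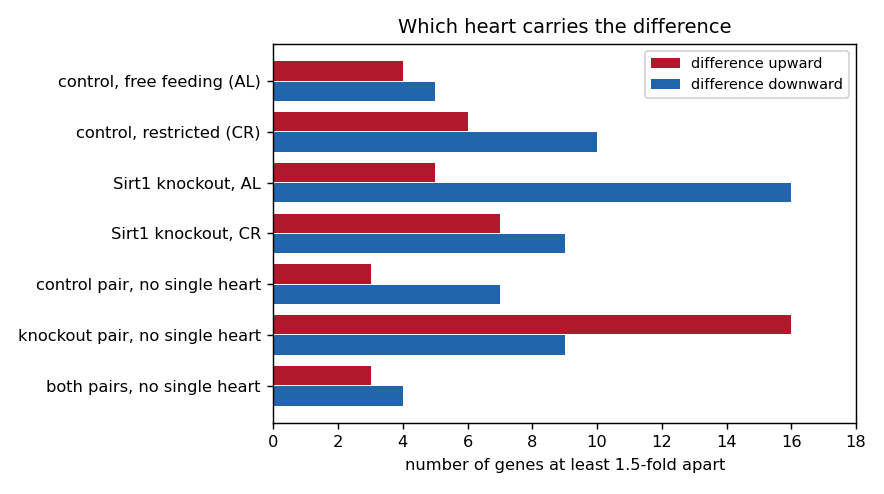
Number of genes with a difference of responses of at least 1.5-fold (x axis), by the heart or pair in which the difference lies (y axis), with bars in red for differences above 0 and in blue for differences below 0. The knockout AL heart holds 16 differences below 0 and 5 above, and the knockout pair without a single heart 16 above and 9 below.

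Circadian clock genes driven through E-boxes were mostly below 0. Of 13 genes on that list 11 were compared, and 9 were below 0 and 2 above, with a median of -0.26 and 3 past 1.5-fold below 0 (Dbp, Ciart and Nr1d1). Dbp, a clock-controlled transcription factor of the PAR bZip family, had log2 signals of 9.89, 10.34, 10.74 and 9.63. It was higher under CR in the control pair and lower under CR in the knockout pair, with the knockout AL heart above the other 3, which spanned 0.71, and its difference was -1.56 (2.94-fold). Ciart, a repressor of the clock, had log2 signals of 6.34, 6.87, 6.62 and 6.38, so that the control CR heart stood above the other 3, and its difference was -0.77. Nr1d1, the nuclear receptor REV-ERBalpha that represses Arntl, had 6.8, 6.74, 7.08 and 6.34. The knockout pair held its difference of -0.67. Usp2, a deubiquitinase and clock output, was at -0.57 with log2 signals of 8.51, 9.21, 9.04 and 9.17, so the control AL heart was the lowest and the other 3 were close together.

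The period genes, which are repressors of the core loop, did not share the difference. Per1 was at 0.05, Per2 at -0.06 and Per3 at -0.05. Tef, a bZip factor related to Dbp, was at 0.19 with log2 signals of 8.76, 9.20, 8.40 and 9.02, higher under CR in both pairs. Arntl (BMAL1), which binds the E-boxes with CLOCK, was at 0.24 with log2 signals of 6.46, 6.04, 6.68 and 6.49, lower under CR in both pairs, and Clock was at 0.03. Clock transcripts change with the hour, so a difference in the time of collection between single hearts cannot be told apart from one of diet or genotype.

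The promoters of 9 of the 11 clock genes were found in the RefSeq table (GRCm38.p6), read over the 250 bases before the annotated start. The E-box CACGTG is its own reverse complement and so is read on both strands at once. It was found for 3 of these 9 genes (Ciart, Per1 and Tef) and in 6.02% of the 32841 promoters of the table. A gene counted if any of its promoters held the E-box, so the count of genes and the share of promoters are not on the same footing. A pair of E-box genes with unlike differences and the gene with the largest one are shown, with each E-box in capitals. They are Ciart (chr3:95882229-95882478, minus strand, 3 matches), Per1 (chr11:69098699-69098948, plus strand, 1 match) and Dbp (chr7:45704997-45705246, plus strand, no match in this window). Per1 has 2 promoters in the table, and the promoter shown was picked by its number of matches.
Ciart: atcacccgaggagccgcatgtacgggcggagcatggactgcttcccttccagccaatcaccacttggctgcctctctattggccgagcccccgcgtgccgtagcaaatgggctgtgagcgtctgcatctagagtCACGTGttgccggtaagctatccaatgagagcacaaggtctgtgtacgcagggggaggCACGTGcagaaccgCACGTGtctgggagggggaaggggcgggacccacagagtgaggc
Per1: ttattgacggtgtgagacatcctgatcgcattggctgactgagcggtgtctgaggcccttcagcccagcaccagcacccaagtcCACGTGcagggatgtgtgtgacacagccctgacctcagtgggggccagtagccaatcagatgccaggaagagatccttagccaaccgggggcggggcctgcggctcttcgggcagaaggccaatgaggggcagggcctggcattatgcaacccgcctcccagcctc
Dbp: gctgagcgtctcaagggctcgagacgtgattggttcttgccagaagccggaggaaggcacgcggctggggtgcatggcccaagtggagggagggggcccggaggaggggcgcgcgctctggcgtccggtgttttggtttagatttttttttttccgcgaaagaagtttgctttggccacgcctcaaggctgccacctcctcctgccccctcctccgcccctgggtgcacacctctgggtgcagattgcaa
The E-boxes of Ciart began 116, 58 and 44 bases before the start and that of Per1 166 bases before it. The number of matches did not follow the differences of -0.77, 0.05 and -1.56 in these 3 genes.

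Genes that glucocorticoids induce leaned above 0. Of 18 listed, 16 were compared, with 12 above 0, 4 below and a median of 0.08, and 2 were past 1.5-fold, both above 0. Tsc22d3 (GILZ), a glucocorticoid-induced leucine zipper protein, had log2 signals of 9.73, 9.66, 8.93 and 9.91. The knockout AL heart was below the other 3, which spanned 0.25, and the difference was 1.05 (2.07-fold). Cebpb, a bZip transcription factor, had 8.81, 9.21, 8.56 and 9.88, higher under CR in both pairs and more so in the knockout pair, with a difference of 0.91. Of the others in the list, Fkbp5, a chaperone of the glucocorticoid receptor, was at 0.48, Sgk1, a kinase, at 0.47, and Klf15, a transcription factor of nutrient metabolism, at 0.53. In the other direction the metallothionein Mt2 was at -0.52, with log2 signals of 8.60, 9.16, 10.10 and 10.15. For 12 of the 16 genes the knockout CR heart had the highest signal (3236 of all 11698), and for 8 the control AL heart had the lowest (3405 of all).

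Depp1, a FOXO target that rises on fasting, shared the order of the hearts with Cebpb. Its log2 signals were 8.46, 8.97, 7.99 and 9.59, so it was higher under CR in both pairs, the knockout AL heart was the lowest and the knockout CR heart the highest, and the difference was 1.09 (2.13-fold). Sesn1, a stress-responsive inhibitor of mTORC1 and another FOXO target, had 8.70, 9.29, 9.12 and 10.29 and a difference of 0.59 in the knockout pair. FOXO targets as a list were balanced, with 9 of 20 above 0, 11 below and a median of -0.01.

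Immediate early genes, which are induced within minutes of a stimulus, were balanced as a list but split by gene. Of 20 compared, 11 were above 0 and 9 below (median 0.01), with 1 past 1.5-fold above 0 and 2 below. Egr1, a zinc finger transcription factor, had log2 signals of 6.50, 6.41, 8.05 and 6.56. It was high in the knockout AL heart, the other 3 lying within 0.15 of each other, and the difference was -1.41 (2.65-fold). Junb had 6.91, 6.82, 7.76 and 7.07 and Fos 6.05, 5.98, 6.78 and 6.15, with differences of -0.61 and -0.55. Both are subunits of AP-1 and, as with Egr1, were highest in the knockout AL heart. Klf4, a zinc finger factor, went the other way at 0.70 with log2 signals of 8.89, 8.62, 8.57 and 9.01, highest in the knockout CR heart, and Jun was at 0.50, also highest there (8.67, 8.87, 8.91 and 9.61). After subtraction of the local background the differences of Egr1, Junb and Fos were -0.95, -0.17 and -0.14.

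Among genes of excitation and contraction, Rrad had the largest difference of all genes. Rrad is a small GTPase that restrains L-type calcium channels through their beta subunit. Its log2 signals were 9.51, 10.02, 11.05 and 9.42, with the knockout AL heart above the other 3, which spanned 0.60. It was higher under CR in the control pair and lower in the knockout pair, and the difference was -2.13 (4.38-fold). Subtracting the local background left -0.40. The 15 other calcium handling genes compared lay between -0.41 (Hrc) and 0.27 (Cacna2d1).

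Myh6, encoding alpha-myosin heavy chain, the motor of the adult mouse ventricle, had log2 signals of 12.45, 13.74, 13.96 and 14.23. The control AL heart was below the other 3, which spanned 0.49, so the difference of -1.02 (2.03-fold) lay in that heart. Subtracting the local background left -0.21. Other sarcomere genes shared the low signal of that heart to a lesser extent. Of the 20 compared, 15 had their lowest signal there (3405 of all 11698 genes). The highest was in the knockout CR heart for 11 of the 20 (3236 of all). The list had 16 members below 0 and 4 above with a median of -0.16, which became 0.044 in the authors' deposited ratios. Myom2, an M-band protein, was at -0.50, while Des, the muscle intermediate filament, was at -0.02. Cardiomyocyte markers, which share members with this list, had 10 of 13 below 0 (median -0.22, and 0.001 in the authors' deposited ratios), and Ckm, the muscle creatine kinase, was past 1.5-fold at -0.61. Its log2 signals were 12.57, 13.07, 12.57 and 12.47, with the control CR heart above the others.

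Acta1, the skeletal alpha-actin that the fetal and the stressed heart express, had log2 signals of 9.07, 9.63, 11.94 and 11.12. Both knockout hearts were far above both control hearts, and within that gap the response went up in the control pair (0.56) and down in the knockout pair (-0.82). The difference was -1.38 (2.60-fold), and no single heart stood apart. The Acta1 promoter (chr8:123894776-123895025, minus strand) is shown because the gene is a textbook target of serum response factor, with the CArG box in capitals.
Acta1: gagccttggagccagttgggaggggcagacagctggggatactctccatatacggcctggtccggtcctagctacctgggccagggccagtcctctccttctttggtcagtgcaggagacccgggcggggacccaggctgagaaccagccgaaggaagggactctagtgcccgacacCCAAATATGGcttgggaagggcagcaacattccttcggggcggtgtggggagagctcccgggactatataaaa
This box began 73 bases before the start. From a list of genes driven by serum response factor or YAP, 10 had a promoter matched, and 5 of these genes held a CArG box on either strand. So did 2 of 17 of the immediate early genes, and 1.47% of all promoters. A gene counted if any of its promoters held the box, so the counts of genes and the share of promoters are not on the same footing. The 12 genes of the serum response factor and YAP list that were compared had a median of 0.14, with 8 above 0 and 4 below, so the difference of Acta1 was not that of the list.

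Other genes of the fetal programme went different ways. Nppa, the atrial natriuretic peptide, had log2 signals of 10.24, 10.27, 11.24 and 12.22, alike in the control pair and higher under CR in the knockout pair, with a difference of 0.96. It turned to -0.38 with the local background subtracted. Nppb, the B-type peptide, was at -0.38 with log2 signals of 10.83, 11.21, 11.88 and 11.89. Myh7, encoding beta-myosin heavy chain, was at 0.10, although both knockout hearts were above both control hearts (6.54, 7.43, 8.65 and 9.63). The atrial markers Myl7 and Myl4 were lower in both knockout hearts, while Nppa was higher in them; the part of atrial tissue in the Nppa values was not tested. Ankrd1, a stress-responsive protein of the I-band and nucleus, was higher under CR by similar amounts on both arrays (12.54, 13.77, 12.98 and 14.25) and was at 0.04.

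Ccn2, a matricellular growth factor and YAP target, had log2 signals of 7.90, 8.37, 7.41 and 8.83, higher under CR in both pairs, with a difference of 0.95 in the knockout pair. It turned to -0.21 with the local background subtracted. Lrrc10, a leucine-rich repeat protein of the cardiac Z-disc, had 9.41, 9.95, 9.11 and 10.75. It was higher under CR in both pairs, most in the knockout pair, and its difference was 1.10 (2.15-fold), or 1.51 with the local background subtracted.

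**Figure D3:**
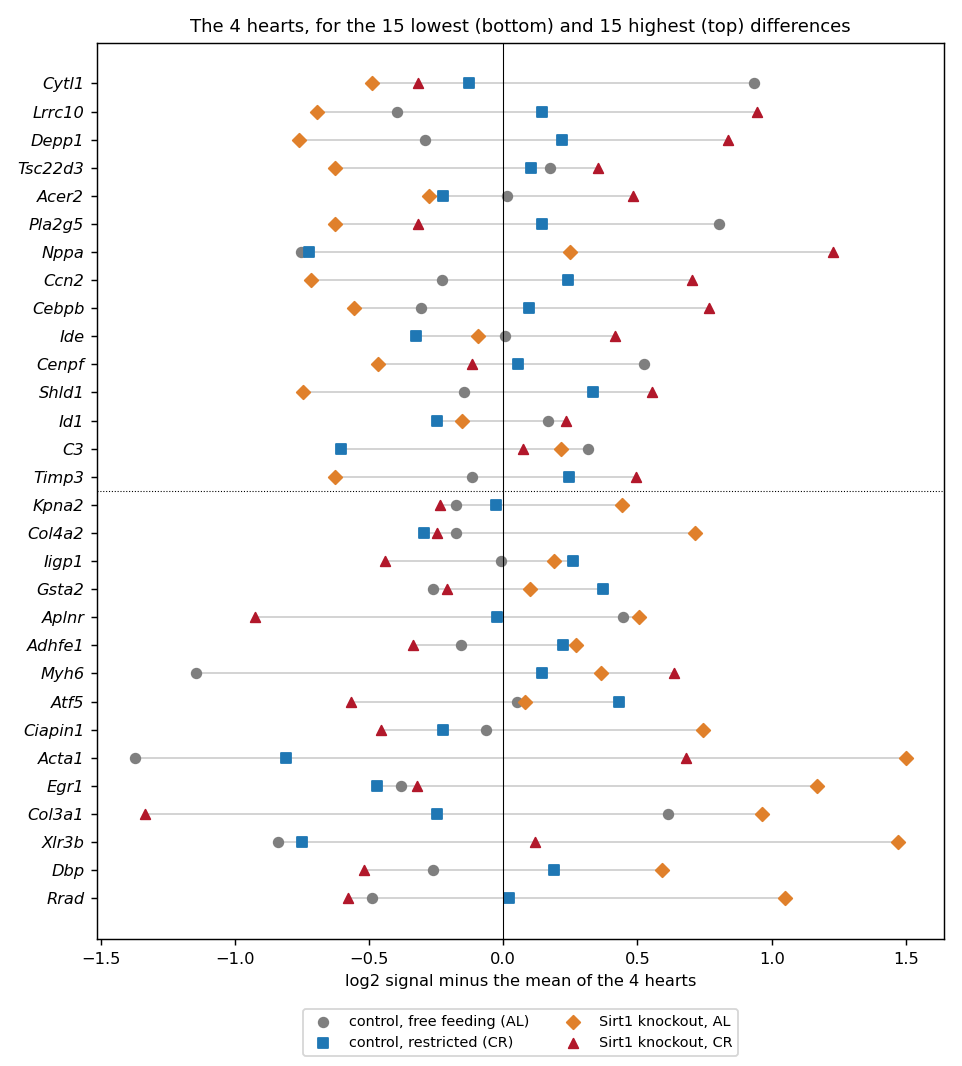
Log2 signal of each heart minus the gene's mean over the 4 hearts (x axis) for the 15 genes with the highest and the 15 with the lowest differences of responses (y axis), with circles for control AL, squares for control CR, diamonds for knockout AL and triangles for knockout CR. The diamond lies apart on the right for Rrad, Dbp, Egr1, Ciapin1, Col4a2 and Kpna2, on the left for Tsc22d3, and the circle lies apart for Myh6 and Cytl1.

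Fibrillar collagens and the enzymes that process them were below 0 almost throughout. Of 18 listed, 15 were compared, of which 14 were below 0 and 1 above, with a median of -0.36, and 1 was past 1.5-fold. Col3a1, a fibrillar collagen of fibroblasts, had log2 signals of 9.32, 8.46, 9.67 and 7.37. It was lower under CR in both pairs and far lower in the knockout CR heart, with a difference of -1.44 (2.71-fold). Col1a1 had 6.19, 5.98, 6.94 and 6.25, Col1a2 had 7.43, 7.18, 8.04 and 7.28, and Col5a1 had 6.87, 6.74, 7.53 and 6.87. For these 3 collagen chains the knockout AL heart was the highest and the other 3 were close together, and their differences were -0.48, -0.50 and -0.53. Col3a1 differed from them in that the knockout CR heart was also well below both control hearts. Over the list, 11 of the 15 genes had their highest signal in the knockout AL heart (2861 of all 11698 genes). The lowest was in the knockout CR heart for 8 of the 15 (3164 of all). The list's median was -0.168 with the local background subtracted.

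The matrix beyond the fibrillar collagens was mixed. Col4a2, a chain of the basement membrane, had log2 signals of 7.68, 7.56, 8.57 and 7.61. The knockout AL heart was above the other 3, which lay within 0.12, and the difference was -0.85. Its partner chain Col4a1 was at 0.02 with a low signal in all hearts (6.17, 6.11, 6.21 and 6.17), and the 12 basement membrane genes compared had 7 above 0, 5 below and a median of 0.01. Sparc, a collagen-binding matricellular protein, had 9.42, 9.19, 10.15 and 9.26 and a difference of -0.67, again from the knockout AL heart. Timp3, an inhibitor of matrix proteases that is bound to the matrix, had 8.74, 9.10, 8.23 and 9.35. It was higher under CR in both pairs, lowest in the knockout AL heart and at 0.76, and Timp4, the inhibitor most typical of heart, was just under 1.5-fold at 0.58 (8.01, 8.69, 8.05 and 9.31).

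Fibroblast markers, which share Col1a1, Col1a2 and Col3a1 with the collagen list, moved beside it. All 14 were compared, 9 were below 0 and 5 above, and the median was -0.22. Of these 14, 10 had their highest signal in the knockout AL heart (2861 of all 11698 genes) and 7 their lowest in the control CR heart (2686 of all). Among them Gsn, an actin-severing protein of fibroblasts and plasma, was at 0.71 (12.39, 11.97, 12.24 and 12.53) and Dcn, a proteoglycan, at 0.42 (11.08, 10.73, 10.87 and 10.94), both lowest in the control CR heart. The part of fibroblast number in the collagen values was not tested.

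Genes of antigen presentation and the interferon response were mostly below 0. All 9 MHC class I genes compared were below 0, with a median of -0.31 (-0.007 with the local background subtracted). B2m, the light chain of class I molecules, had log2 signals of 12.11, 12.02, 12.91 and 12.04. The knockout AL heart was above the other 3, which lay within 0.08 of each other, and the difference was -0.79. All 4 MHC class II genes compared were below 0 as well, with a median of -0.43 and none past 1.5-fold. The class II chain H2-Aa had 9.86, 8.55, 9.87 and 8.07 and was lower under CR in both pairs, with the knockout CR heart the lowest and a difference of -0.50. Cd74, the invariant chain, was at -0.55.

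Of 27 interferon-responsive genes compared, 23 were below 0 and 4 above, with a median of -0.13 and 2 past 1.5-fold below 0. Iigp1, an interferon-inducible GTPase, had log2 signals of 8.96, 9.23, 9.16 and 8.53. The knockout CR heart was below the other 3, which spanned 0.28, and the difference was -0.91. Cxcl9, a chemokine that interferon gamma induces, had 7.36, 7.54, 7.42 and 6.95, with the same heart lowest, and a difference of -0.64 that turned to 0.15 with the local background subtracted. B2m and Iigp1 thus reached the same sign from different hearts: B2m was high in the knockout AL heart, and Iigp1 was low in the knockout CR heart.

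Complement was chosen by the study on these arrays, so its counts are not independent evidence. C3, the central complement component, had log2 signals of 8.65, 7.73, 8.55 and 8.41. The control CR heart was below the other 3, which lay within 0.24, so the difference of 0.78 lay in that heart, and it was 1.38 with the local background subtracted. Of the 13 components compared, 5 were above 0 and 8 below, with a median of -0.06, and C3 was the only one past 1.5-fold. The chains of C1q, which macrophages make, lay on the other side: C1qa at -0.46, C1qb at -0.47 and C1qc at -0.35. C1qb had 9.03, 8.44, 9.83 and 8.77 and was highest in the knockout AL heart. Of 9 regulators and receptors 3 were above 0 and 6 below, with a median of -0.22 (0.037 with the local background subtracted). Clusterin (Clu) was at 0.36 and the C1 inhibitor Serping1 at 0.27, while C3ar1, the receptor of the C3a fragment, was at -0.53 with log2 signals of 6.49, 6.43, 7.01 and 6.43, highest in the knockout AL heart.

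Macrophage markers, which include the C1q chains, had 10 of 13 compared below 0 and a median of -0.19. For 10 of the 13 the knockout AL heart was the highest (2861 of all 11698 genes) and for 8 the control CR heart the lowest (2686 of all). Of 10 neutrophil markers 4 were compared, all below 0. S100a9, a calcium-binding protein of neutrophils, was at -0.81, with log2 signals of 6.28, 6.24, 7.25 and 6.40 and the knockout AL heart apart. Of the 14 lymphocyte markers 6 were compared, between -0.28 and 0.13. The part of immune cell number in the values of antigen presentation and complement genes was not tested.

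Glycolysis, the Krebs cycle and fatty acid oxidation showed small differences that mostly had 1 sign, while the respiratory chain did not. Of 28 glycolytic genes compared, 23 were below 0 and 5 above (median -0.25, or -0.097 with the local background subtracted), and of 22 genes of the Krebs cycle and pyruvate dehydrogenase 21 were below 0 (median -0.18, but 0.028 in the authors' deposited ratios). Fatty acid uptake and oxidation had 25 of 28 below 0 (median -0.14, but 0.015 in those ratios). The control AL heart was the lowest for 19 of 28 glycolytic genes and 18 of 22 Krebs cycle genes, against 3405 of all 11698. Of the 28 fatty acid genes 12 were lowest in the control AL heart, while 10 had their lowest signal in the knockout CR heart (3164 of all). No member of the Krebs cycle or fatty acid list was past 1.5-fold. Subunits of respiratory complex I were balanced, with 19 above 0 and 16 below (median 0.06), as were those of complexes III to V, with 20 above and 17 below (median 0.02). Genes of PGC-1 and mitochondrial biogenesis were divided evenly, 9 above and 9 below.

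The 3 glycolytic genes past 1.5-fold were not alike. Gapdh had log2 signals of 7.73, 8.47, 8.46 and 8.52, with the control AL heart below the other 3, which lay within 0.07, and a difference of -0.67. Pgam1, phosphoglycerate mutase, had 10.19, 9.88, 11.36 and 10.42 and was lower under CR in both pairs, at -0.64. Pkm, pyruvate kinase of muscle, had 9.28, 10.02, 10.83 and 10.92 and was at -0.65, which turned to 1.14 with the local background subtracted. Fabp3, which carries fatty acids in cardiac muscle, had 15.95, 14.65, 16.20 and 14.46, with both AL signals near the limit of the scanner, and was at -0.44.

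The list of ketone use, uncoupling and fuel switch genes was also balanced, with 5 above 0 and 6 below. Bdh1, the mitochondrial enzyme that oxidizes beta-hydroxybutyrate, had log2 signals of 8.89, 9.10, 9.79 and 9.33 and was at -0.67 (0.25 with the local background subtracted). Ucp2, an inner membrane carrier related to the uncoupling protein, had 8.35, 7.74, 7.39 and 7.46. Its response lay in the control pair, where the AL heart was highest, and the difference was 0.68. Adhfe1, a mitochondrial transhydrogenase that acts on gamma-hydroxybutyrate, had 8.39, 8.77, 8.82 and 8.21, with the knockout CR heart lowest and a difference of -0.99. Nampt, which makes the precursor of NAD, was higher under CR in both pairs (9.40, 10.03, 9.16 and 10.12) and at 0.33, the highest of 20 genes of sirtuins and NAD metabolism, whose median was -0.02.

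Proteasome subunits and ribosomal proteins were each mostly on 1 side. Proteasome subunits were below 0 in 30 of 31 (median -0.18, or -0.075 in the authors' deposited ratios). Of the 31, 25 were lowest in the control AL heart (3405 of all 11698 genes). Cytosolic ribosomal proteins were above 0 in 44 of 50 (median 0.10, but -0.005 with the local background subtracted). Of the 50, 28 were highest in the control AL heart (3069 of all). No member of either list reached 1.5-fold. NRF2 targets and glutathione enzymes were below 0 in 21 of 28 (median -0.17), with 3 past 1.5-fold. Gsta2, a glutathione transferase, had log2 signals of 6.53, 7.16, 6.89 and 6.58. Its control CR heart stood above the other 3 and its difference was -0.94. Gsta2 has close paralogs, which a probe may not separate. Nqo1, a quinone reductase, had 8.18, 8.78, 8.34 and 8.23, with the control CR heart above the other 3 and a difference of -0.70, and Srxn1, sulfiredoxin, was at -0.60.

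Chaperones were below 0 in 17 of 24 (median -0.13, but 0.033 in the authors' deposited ratios). Dnajb1, an HSP40 co-chaperone, went the other way at 0.74 with log2 signals of 8.57, 7.93, 7.75 and 7.84. The control AL heart was above the other 3. Atf5, a transcription factor of the integrated and mitochondrial stress responses, had 7.73, 8.11, 7.76 and 7.11, with the knockout CR heart below the other 3 and a difference of -1.03 (2.04-fold). Autophagy and lysosome genes were balanced, with 12 above 0 and 14 below (median -0.02). Among them Ctsl, a lysosomal protease, had 9.15, 10.23, 9.45 and 9.90. It was higher under CR in both pairs and more so in the control pair, with a difference of -0.63.

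**Figure D4:**
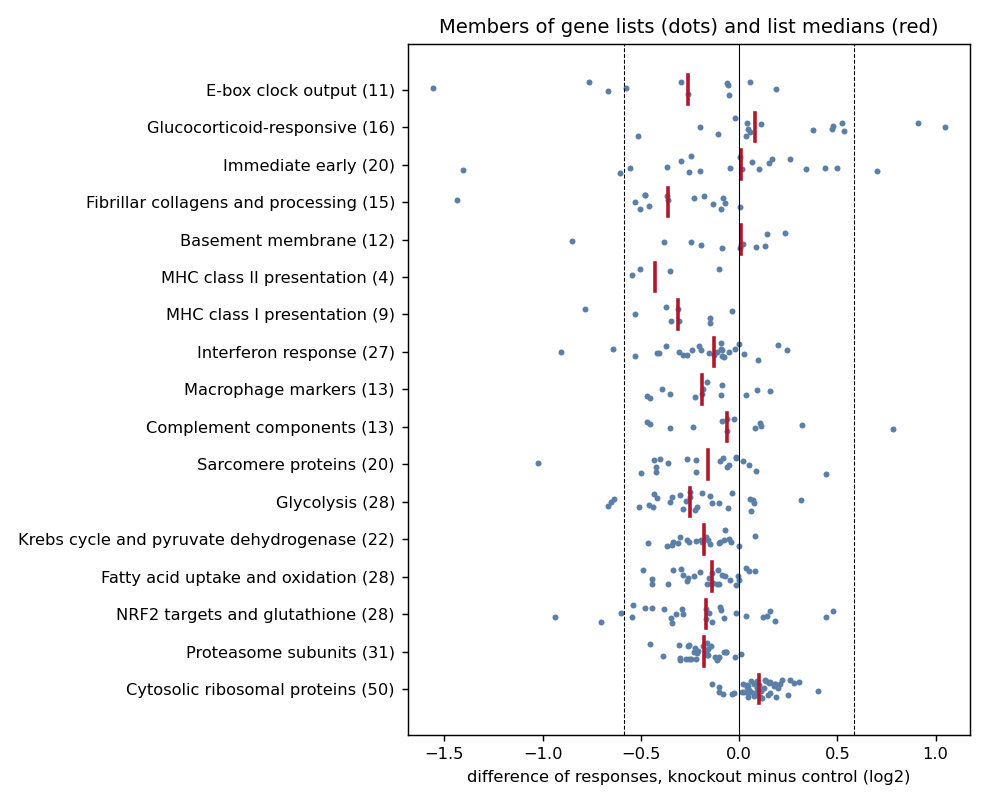
Difference of responses (x axis, log2) of each gene compared in 17 lists (y axis, with the number of genes compared in brackets), with a dot for each gene and a red bar at the list's median. Solid and dashed vertical lines mark 0 and 1.5-fold, and the collagen, MHC class I and II, glycolysis, Krebs cycle and proteasome lists lie mostly on the left and the ribosomal proteins mostly on the right.

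The remaining genes with the largest differences came from several processes. Cytl1, a secreted cytokine-like protein, had log2 signals of 8.18, 7.12, 6.76 and 6.93. The control AL heart was above the other 3 and the difference of 1.23 (2.34-fold) was the highest of all genes. The array's annotation names this probe Cyt1, and the current symbol rests on a table of synonyms. Pla2g5, a secreted phospholipase A2, was also highest in the control AL heart (9.25, 8.59, 7.82 and 8.13) and at 0.97. Xlr3b had 6.37, 6.46, 8.68 and 7.33, so that both knockout hearts were above both control hearts and the knockout AL heart was the highest, and its difference was -1.44 (2.72-fold). It belongs to a cluster of near-identical genes on the X chromosome, which a probe may not separate.

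Ciapin1, a factor of cytosolic iron-sulfur cluster assembly, had log2 signals of 9.69, 9.53, 10.50 and 9.30. The knockout AL heart stood above the other 3 and the difference was -1.04 (2.05-fold). Kpna2, an importin that carries proteins into the nucleus, had the same heart apart (8.17, 8.32, 8.79 and 8.11) and was at -0.82. Aplnr, the apelin receptor of endothelium and cardiomyocytes, had 7.70, 7.23, 7.76 and 6.33, lower under CR in both pairs and lowest in the knockout CR heart, and was at -0.96, or -0.28 with the local background subtracted.

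Ide, the insulin-degrading enzyme, had log2 signals of 9.14, 8.81, 9.04 and 9.55 with the knockout CR heart apart, and was at 0.84. Id1, an inhibitor of basic helix-loop-helix factors, was lowest in the control CR heart (8.87, 8.46, 8.55 and 8.94) and at 0.81. Shld1, a subunit of the shieldin complex of DNA repair, was higher under CR in both pairs (9.36, 9.84, 8.76 and 10.06) and at 0.82. Cenpf, a kinetochore protein of dividing cells, had 8.56, 8.09, 7.57 and 7.92, lower under CR in the control pair and higher in the knockout pair, and was at 0.82. Acer2, an alkaline ceramidase, had 6.81, 6.57, 6.52 and 7.28 and was at 1.0 by its brightest probe, whereas another probe was at 0.14. The mean of its probes was at 0.57, and the brightest was at 0.12 with the local background subtracted.

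The size of these differences moved with the processing. Of the 104 genes at 1.5-fold, 95 kept their sign in all of 6 other ways of computing the values and 34 stayed at 1.5-fold or more the same way in all of them. Of the genes past 2-fold, 28.6% were above 0, against 20% with median centring in place of loess, 38.5% with loess within each block, 51.8% with an offset of 0, 69.1% with the local background subtracted and 46.0% in the authors' deposited ratios. At 1.5-fold 42.3% were above 0, against 25.6% with median centring and 59.8% with the local background subtracted.

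**Figure D5:**
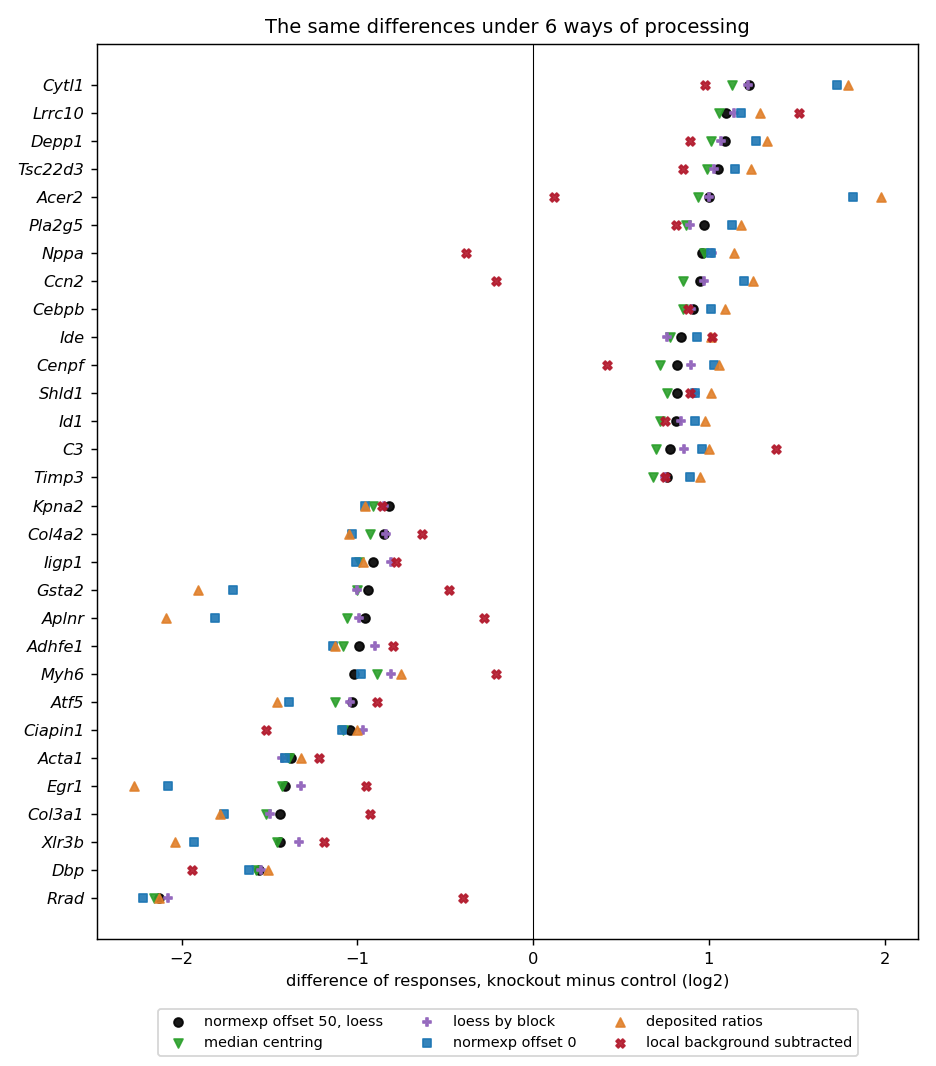
Difference of responses (x axis, log2) of the 15 highest and 15 lowest genes (y axis) under 6 ways of processing, with a symbol for each. Nppa and Ccn2 cross 0 with the local background subtracted (-0.38 and -0.21), Rrad moves from -2.13 to -0.40, and the other genes drawn stay on their side of 0.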

How the data were processed

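Total RNA of whole hearts was amplified, coupled to Cy5 (AL) or Cy3 (CR) and hybridised in pairs to 2 oligonucleotide arrays, per the labels' protocols. The deposited scanner files hold spot intensities in both channels and the brightness around each spot, per the file headers. The authors also deposited a table of log2 CR over AL ratios, as their labels describe. Its values were recovered as the log2 ratio of the signals above the blank spots plus a constant. The constant was -0.359 (control array) and -0.144 (knockout array), with 17404 of 17405 and 16554 of 16555 values within 0.001. Its scale, centring and direction were thus settled. Neither scanner software nor genome build is given in the sources used here.

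Intensities were corrected with normexp (offset 50) on the spot signal and then array by array with a loess fit (limma 3.58.1, R 4.3.3). The local background was not used in this setting: the brightness around spots followed the spots' own brightness (Spearman correlations over spots of 0.875 to 0.944, a description), so its subtraction was tried as an alternative. Separate channels were put on a common scale by Aquantile. A spot was above the blank spots where it exceeded the trimmed mean of the 2736 blanks (5% left out at each end) by 2 SD. Probes not flagged OK on both arrays were left out, which removed 3 genes that were above the blank spots in all 4 hearts. Of 23473 probes 16631 carried a symbol in the platform annotation, of which 12622 were current, 3924 were updated through a synonym (GRCm38.p6 gene table) and 85 were unmatched; 6842 had none. Spots of 1 probe were averaged, and the brightest probe stood for a gene.

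Genes named were Sirt1, C3, the 15 highest and 15 lowest differences among the 5752 genes that had a usable symbol and at least the median signal, and list members past 1.5-fold, up to 4 in the list's direction and 2 the other way. Members below 1.5-fold were otherwise named after their values were seen. The members and lists were chosen with earlier results of these data known, so no count is independent evidence, and lists share genes. The scripts were tested on simulated data. The number of arrays limits the precision, and no test was run.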

Additional observations from a re-analysis of the deposited data

Results flagged for a closer look

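Genes with a large difference are more likely to have responses of opposite sign on the 2 arrays, and the difference between the arrays was not tested. Of the 15 genes with the highest and the 15 with the lowest differences, 11 had responses of opposite sign, each of at least 1.2-fold. Below 0 these were Rrad (-2.13), Dbp (-1.56), Acta1 (-1.38), Atf5 (-1.03), Adhfe1 (-0.99), Gsta2 (-0.94) and Iigp1 (-0.91), all higher under CR in the control pair and lower in the knockout pair. Above 0 these were Pla2g5 (0.97), Ide (0.84), Cenpf (0.82) and Id1 (0.81), lower under CR in the control pair and higher in the knockout pair. Mthfd2, past 2-fold but too dim to be ranked with them, had 0.98 in the control pair and -0.35 in the knockout pair.

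Spots outside the comparison of genes also differed. The first kind of positive control spot went from a mean log2 CR over AL of -0.09 in the control pair to -0.78 in the knockout pair, which is -0.68 over 24 spots. The other kind went from -0.44 to -0.26, a difference of 0.18. What these spots report is not given in the sources used here.

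Of the 6842 probes without a gene symbol, 4050 were above the blank spots in all 4 hearts, and 1 was at least 2-fold above 0 and 8 at least 2-fold below. The probe above 0 was M400015154 (1.34), whose knockout CR heart was above the other 3. The probes below 0 were M400010801 (-1.43), M400006987 (-1.10), M400010688 (-1.09), M400007867 (-1.07), M400009819 (-1.05), M400006754 (-1.04), M400012661 (-1.03) and M400010384 (-1.01).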

How the results depend on the processing

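Counts past a fold moved most with the background. The 14 genes past 2-fold became 110 with a normexp offset of 0 (57 above 0 and 53 below), 165 with the local background subtracted (114 and 51, or 69.1% above 0) and 428 in the authors' deposited ratios (197 and 231). The 104 genes past 1.5-fold became 820 (387 and 433), 637 (381 and 256, or 59.8% above 0) and 1555 (698 and 857). Median centring gave 93 below 0 at 1.5-fold, with 25.6% above 0. The share of all genes above 0 was 39.4% with median centring, 51.1% with the local background subtracted, 50.2% in the deposited ratios and 47.3% among brighter genes. The 62 genes with 1 heart apart became 30 under a stricter limit on the range of the other hearts, 624 with an offset of 0 and 190 with the local background subtracted. An offset draws the ratios of dim genes toward 0, so part of the rise with an offset of 0 follows from the processing. The cause of the other changes was not tested.

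With the local background subtracted, 6 named genes turned: Nppa to -0.38, Ccn2 to -0.21, Cxcl9 to 0.15, Pkm to 1.14, Bdh1 to 0.25 and Mars1 to 0.35. So did the medians of complement regulators (0.037), ribosomal proteins (-0.005), endothelial markers (0.114) and liver markers (-0.068). In the deposited ratios the medians of sarcomere proteins (0.044), fatty acid oxidation (0.015), the Krebs cycle (0.028), chaperones (0.033) and cardiomyocyte markers (0.001) turned. A turn was counted only for genes at least 1.5-fold apart and for medians of at least 0.1 in size; some smaller values also crossed 0, as Sirt1 did from 0.02 to -0.07 with median centring. No paired analysis was possible because each genotype has 1 array. Dye and diet cannot be told apart within an array, although a dye effect common to both arrays is absent from their difference.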

Other observations

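Genes of the amino acid response, which the transcription factor ATF4 drives when amino acids are short or the mitochondria are stressed, were gathered into a list after Mthfd2 and Atf5 had been seen among the largest differences, so the list supports nothing. Of 41 genes 35 were compared, and 24 were below 0 and 11 above, with a median of -0.16. Mthfd2, a mitochondrial enzyme of folate metabolism, had log2 signals of 6.28, 7.26, 6.39 and 6.04 in the order control AL, control CR, knockout AL and knockout CR. The control CR heart was above the other 3 and the difference was -1.33 (2.52-fold), or -0.52 with the local background subtracted. Asns, asparagine synthetase, had 6.17, 6.8, 6.58 and 6.59, with the control AL heart lowest and a difference of -0.61. Mars1, the tRNA synthetase of methionine, had 8.41, 9.07, 9.27 and 9.33, also lowest in the control AL heart, and was at -0.60, or 0.35 with the local background subtracted. Atf4 itself was at 0.01 (8.99, 9.05, 8.65 and 8.72) and Trib3, a pseudokinase that ATF4 induces, at 0.02. Chac1, which degrades glutathione, was higher under CR in both pairs (6.37, 7.11, 6.32 and 6.88) and at -0.18. The 4 members past 1.5-fold below 0, Atf5 included, did not share 1 heart, and Cebpb, also on the list, was above 0.

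The composite element TGATGNAA, which ATF4 binds with C/EBP factors, was searched on both strands of the 250 bases before the start. It was found for 9 of the 29 genes of the list with a promoter matched, and in 3.45% of all 32841 promoters of the RefSeq table (GRCm38.p6). A gene counted if any of its promoters held the element, so the count of genes and the share of promoters are not on the same footing. Asns is shown (chr6:7693210-7693459, minus strand) because it is the textbook gene of the response, with the element in capitals, which began 23 bases before the start.
Asns: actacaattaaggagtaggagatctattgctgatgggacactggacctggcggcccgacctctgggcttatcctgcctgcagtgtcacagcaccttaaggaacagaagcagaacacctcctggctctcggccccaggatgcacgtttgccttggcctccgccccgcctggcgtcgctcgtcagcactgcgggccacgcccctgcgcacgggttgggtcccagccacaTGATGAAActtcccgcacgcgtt
The promoters of Mthfd2, Atf5 and Mars1 held no match in this window.

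Several bright probes without a gene symbol were, like Myh6, lowest in the control AL heart. M400006987 had log2 signals of 12.64, 13.54, 13.84 and 13.64, M400010688 had 12.76, 13.50, 14.11 and 13.75, and M400009819 had 12.93, 13.83, 14.20 and 14.06. The knockout AL heart was the highest in each, whereas Myh6 was highest in the knockout CR heart. With the local background subtracted their differences were 0.18, -0.21 and -1.29.

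The 4692 genes not compared include 1681 not above the blank spots in any heart. Above the blank spots in a single heart were 376 genes in the control AL heart, 321 in the control CR heart, 207 in the knockout AL heart and 199 in the knockout CR heart. The shares of all probes above the blank spots had the same order, at 80.7%, 77.8%, 77.6% and 74.0%. These counts are thus not read as a result about the genes.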
